A study of Mus musculus with 2 samples.

Results

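The genes described here are 10 members of the unfolded protein response and the integrated stress response, the programmes with which a cell meets misfolded protein in the endoplasmic reticulum (ER) and shortage of amino acids. They were chosen by symbol, *Atf4*, *Ddit3*, *Trib3*, *Asns*, *Xbp1*, *Hspa5*, *Hsp90b1*, *Calr*, *Herpud1* and *Dnajb9*, and all 10 were found among the 31053 genes of the count table, of which 15902 had a UMI in the cells used. Adipose tissue macrophages (ATMs) were sorted as CD45+Lin-Ly6Clow/-F4/80+ cells from collagenase-digested epididymal fat of male C57/BL6 mice, 8 to 12 weeks old by the study's methods. Cells of 3 unchallenged mice on control diet (CD) were pooled into 1 single-cell library, and cells of 3 mice given high fat diet (HFD) overnight into another, with no transgene and no other agent in either group. Each diet thus had 1 library of pooled animals and no replicate, so no test between the diets was possible, and every interval below covers counting error only, not the spread between mice.

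Messenger RNA was counted as unique molecular identifiers (UMIs), 1 for each captured molecule, and a level is given as counts of a gene scaled to a total of 1000000 (CPM), summed over cells, with an exact 95% Poisson interval. Cells with 200 to 3500 genes and at most 10% of UMIs from mitochondrial (mt-) genes were kept, which left 2364 CD and 2021 HFD cells with medians of 4490.5 and 2792 UMIs. All 6 macrophage markers looked for, *Adgre1*, *Csf1r*, *Cd68*, *Itgam*, *Fcgr1* and *Ptprc*, had UMIs in both libraries. The libraries shared 14 cell barcodes, 7 of them among the kept cells, and doublets were kept. A gene was called higher or lower when its ratio passed 1.5-fold with at least 20 UMIs in the cells compared. No cell type is known to lack these genes, so a background from free RNA could not be set for them.

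In the ER membrane, the sensors PERK (*Eif2ak3*), IRE1 (*Ern1*) and ATF6 respond to unfolded protein. PERK and related kinases phosphorylate eIF2α, which slows protein synthesis and favours translation of the transcription factor ATF4. ATF4 in turn raises the transcription factor CHOP (*Ddit3*), the pseudokinase *Trib3* and enzymes of amino acid supply such as asparagine synthetase (*Asns*). IRE1 splices the *Xbp1* messenger, and spliced XBP1 and cleaved ATF6 raise chaperones and components of ER-associated degradation. Splicing of *Xbp1* and translation of *Atf4* cannot be read from counts at the 3′ end of messengers, so the values below are messenger levels and not branch activity. Macrophages that take up lipid are known to engage these pathways.

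The promoters of 6 members held a known response element of these pathways within 250 bases before and 50 bases from the RefSeq start site (GRCm38.p6), counting the first of those 50 bases as position 0, and they are shown here because they carry the letters by which folding genes and ATF4 targets are usually told apart. These 5 motifs were searched on both strands of 32851 such windows of 27025 genes. The ER stress response element (ERSE), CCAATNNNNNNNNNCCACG, was in 39 windows (0.119%), among them those of *Hspa5*, *Hsp90b1* and *Calr*. ERSE-II, ATTGGNCCACG, was in 12 windows (0.0365%), with *Herpud1* as the only member. The C/EBP-ATF response element (CARE), TGATGNAA, which ATF4 dimers can bind, was in 1304 windows (3.97%), among them those of *Asns*, *Trib3* and *Herpud1*. The unfolded protein response element (UPRE), TGACGTGG, in 222 windows (0.676%), and the cyclic AMP response element (CRE), TGACGTCA, in 588 windows (1.79%), were in no member. *Atf4*, *Ddit3*, *Xbp1* and *Dnajb9* held none of the searched motifs in this window. A match is only a run of letters, and no binding was measured. In the sequences below, read 5′ to 3′ on the strand of the gene, capitals mark the fixed bases of the motifs, and motifs on the opposite strand appear as their reverse complement.
*Hspa5*: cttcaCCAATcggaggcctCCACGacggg
*Hsp90b1*: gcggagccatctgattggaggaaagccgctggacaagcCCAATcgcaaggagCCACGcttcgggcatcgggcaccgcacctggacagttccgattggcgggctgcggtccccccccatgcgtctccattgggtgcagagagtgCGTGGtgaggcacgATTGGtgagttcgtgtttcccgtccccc
*Calr*: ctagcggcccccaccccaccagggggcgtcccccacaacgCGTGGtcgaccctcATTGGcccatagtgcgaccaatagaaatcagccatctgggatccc
*Herpud1*: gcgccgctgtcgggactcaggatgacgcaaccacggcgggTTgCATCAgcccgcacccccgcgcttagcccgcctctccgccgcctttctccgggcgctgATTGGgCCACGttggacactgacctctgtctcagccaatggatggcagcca
*Asns*: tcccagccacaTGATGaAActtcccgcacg
*Trib3*: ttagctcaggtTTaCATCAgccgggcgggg

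*Hspa5* is shown over chr2:34772020-34772048 (plus strand), with the ERSE at positions -65 to -47. *Hsp90b1* is shown over chr10:86705510-86705694 (minus strand), with an ERSE on the gene's strand at -212 to -194 and another on the opposite strand at -107 to -89. *Calr* is shown over chr8:84847035-84847133 (minus strand), with the ERSE on the opposite strand at -162 to -144. *Herpud1* is shown over chr8:94386277-94386427 (plus strand), with a CARE on the opposite strand at -112 to -105 and the ERSE-II at -52 to -42. *Asns* is shown over chr6:7693214-7693243 (minus strand), with the CARE at -23 to -16. *Trib3* is shown over chr2:152344028-152344057 (minus strand), with the CARE on the opposite strand at 14 to 21. The *Hspa5* and *Asns* motifs lie in an untranslated stretch of a GENCODE transcript that starts further upstream, so only a few flanking bases are printed there and for *Trib3*.

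The first question was whether a single night of HFD was accompanied by other levels of these genes. Of the members, 4 were higher in the HFD library by less than 1.5-fold with intervals above 0 on the log2 scale (*Hspa5*, *Hsp90b1*, *Calr* and *Atf4*), *Xbp1* stood at the limit, *Asns* passed it, *Dnajb9* was lower, *Ddit3* and *Herpud1* had intervals that spanned 0, and *Trib3* was almost absent. Over the 9 members with at least 20 UMIs the median log2 ratio of HFD over CD was 0.26, beside -0.02 over all 11170 genes with as many UMIs. That median counts *Asns*, whose direction was fixed by the filter, so it is a description only. Over the 6 members of the ER branches, without *Asns*, the median was 0.26, with 4 of 6 above 0. *Asns* aside, whose call could go in 1 direction only, 0 of the other 8 members passed 1.5-fold higher, where 6.28% of all genes did, and 0 passed 1.5-fold lower, where 11.9% did. Among the 4314 genes with at least 500 UMIs, the shares were 2.83% and 4.98%, which bears on the 8 members other than *Asns* and *Trib3*.

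*Atf4*, the transcription factor of the integrated stress response (chromosome 15, 80255184 to 80257541), was at 185 CPM in CD (177 to 192) and 209 CPM in HFD (200 to 220). The log2 ratio was 0.18 (0.09 to 0.27), so the libraries differed by more than counting error but by little. *Ddit3*, which encodes the pro-apoptotic factor CHOP (chromosome 10, 127290774 to 127296288), was at 47.9 CPM in CD (44.1 to 51.9) and 43.8 CPM in HFD (39.3 to 48.6). Its log2 ratio was -0.13 (-0.32 to 0.06), and a difference was not detectable at this depth. *Trib3*, a pseudokinase that CHOP and ATF4 are known to raise (chromosome 2, 152337422 to 152344032), had 3 UMIs in CD and 2 in HFD among 12284010 and 8086475 UMIs. No fold is given for it.

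*Asns*, the enzyme that makes asparagine and a common reporter of ATF4 (chromosome 6, 7675169 to 7693254), had 12 UMIs in 11 CD cells and 32 UMIs in 28 HFD cells. These correspond to 0.977 CPM (0.505 to 1.71) and 3.96 CPM (2.71 to 5.59), a log2 ratio of 2.02 (1.02 to 3.11). It was the only member past 1.5-fold, but it reached 20 UMIs only with those of the HFD library, where it was high, so its call had to be in this direction. With each cell thinned to 800 UMIs it kept 5 UMIs in CD and 1 in HFD, and no ratio could be set. The *Asns* UMIs did not fall evenly over depth. Cells under 2000 UMIs held 3 of them in CD and 0 in HFD, and cells with 8000 or more UMIs held 8 and 20.

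*Xbp1*, the transcription factor of the IRE1 branch (chromosome 11, 5520659 to 5525893), was at 155 CPM in CD (148 to 162) and 233 CPM in HFD (223 to 244). The log2 ratio was 0.58 (0.49 to 0.68), a fold of 1.49997, and thus just inside the limit on the side of no call. Its ratio was above 0 in all 14 alternatives that were run and passed the limit in 4 of them. These were at least 1000 genes per cell (0.59), an upper limit from the quartiles of genes with at most 7 UMIs per gene (0.59), a mean over cells (0.59) and cells of 2000 to 4000 UMIs (0.68). It stayed short of the limit in the others, among them cells thinned to 800 UMIs (0.47) and cells of 4000 to 8000 UMIs (0.53). A UMI of *Xbp1* was found after thinning to 800 UMIs in 12.9% (11.5 to 14.3, exact binomial) of the CD and in 16.8% (15.1 to 18.5) of the HFD cells. Without thinning these shares were 49.4% and 48.9%, in libraries of unequal depth.

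Among the folding genes, *Hsp90b1*, which encodes the ER chaperone GRP94 that folds Toll-like receptors and integrins (chromosome 10, 86690209 to 86705509), was at 544 CPM in CD (531 to 558) and 778 CPM in HFD (759 to 798). Its log2 ratio was 0.52 (0.47 to 0.57), and after thinning 35.6% of CD and 45.1% of HFD cells held a UMI (84.2% and 80.3% without thinning). *Hspa5*, which encodes BiP, the chaperone that holds the ER sensors inactive (chromosome 2, 34771970 to 34777547), was at 431 CPM in CD (419 to 442) and 518 CPM in HFD (503 to 534), a log2 ratio of 0.27 (0.21 to 0.33). *Calr*, the calcium-binding lectin chaperone calreticulin (chromosome 8, 84841850 to 84846934), was at 425 CPM in CD (414 to 437) and 508 CPM in HFD (492 to 524), a log2 ratio of 0.26 (0.20 to 0.32). These 3 genes, whose promoters held an ERSE, were higher in HFD by 1.19-fold to 1.43-fold. *Xbp1*, which held none of the searched motifs, had a fold of 1.49997, and *Herpud1*, with an ERSE-II, a log2 ratio of -0.11. A link of the motifs to the ratios was not tested. As many as 40 *Hspa5* UMIs came from 1 HFD cell, and 17 from 1 CD cell.

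The remaining members act on proteins that fail to fold. *Herpud1*, a membrane component of ER-associated degradation (chromosome 8, 94386438 to 94395377), was at 104 CPM in CD (98.3 to 110) and 96.3 CPM in HFD (89.7 to 103), a log2 ratio of -0.11 (-0.24 to 0.02). *Dnajb9*, a co-chaperone of BiP that represses IRE1 (chromosome 12, 44205559 to 44210326), was at 94.0 CPM in CD (88.7 to 99.6) and 69.1 CPM in HFD (63.5 to 75.1). Its log2 ratio was -0.44 (-0.59 to -0.30), the lowest of the members. After thinning 8.18% of CD and 5.92% of HFD cells held a *Dnajb9* UMI (34.3% and 21.5% without thinning). *Dnajb9* and *Xbp1*, both known to be raised by the ER sensors, stood on opposite sides of 0.

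**Figure D1:**
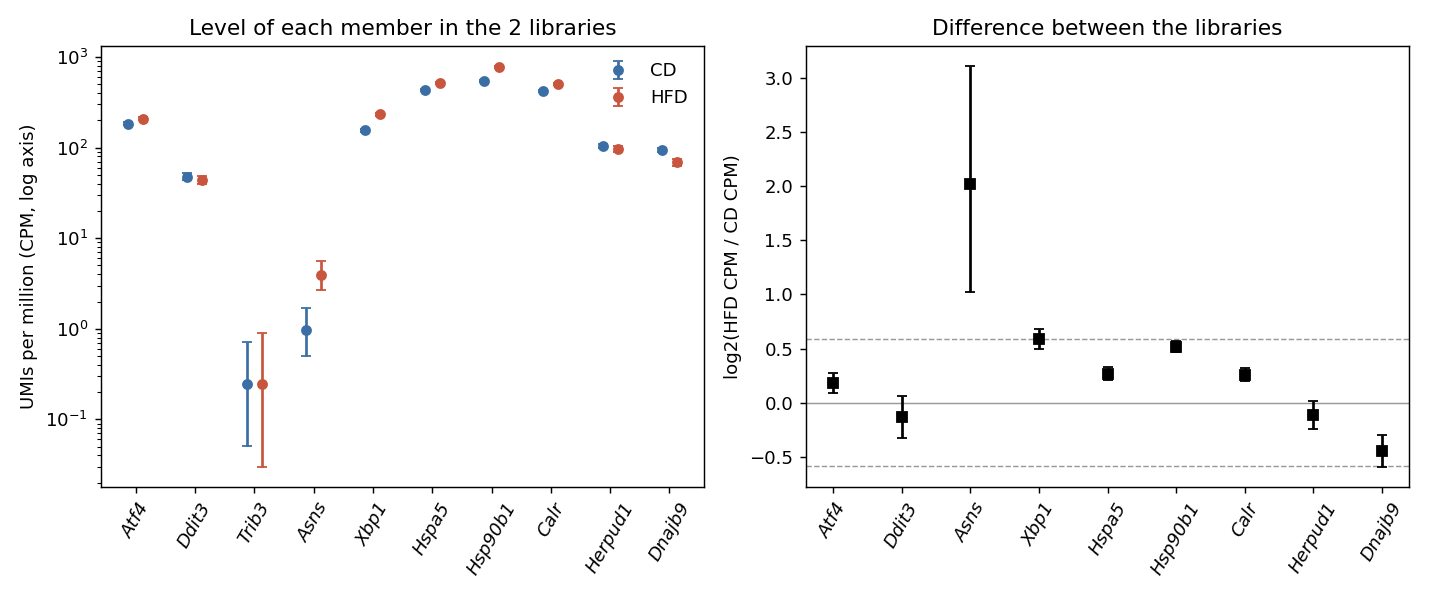
The left panel plots the level in CPM (log axis) for each member in the CD and HFD libraries with exact 95% Poisson intervals, and the right panel the log2 ratio of HFD over CD with its exact 95% interval for the 9 members with at least 20 UMIs. Dashed lines mark 1.5-fold, which *Asns* passed (2.02), *Xbp1* touched (0.58) and *Dnajb9* did not reach (-0.44).

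Cell make-up and depth differed between the libraries beside these ratios. Lyve1+ cells held 43.7% of the UMIs in CD and 17.0% in HFD, and cells with at least 10 *Lyz1* UMIs held 38.8% and 56.8%. With the HFD library standardised to the CD shares of UMIs over 5 disjoint classes, the log2 ratio was 0.52 for *Xbp1*, 0.45 for *Hsp90b1*, 0.33 for *Hspa5*, 0.32 for *Calr*, -0.28 for *Dnajb9* and 1.70 for *Asns*. Within cells of 4000 to 8000 UMIs, a window chosen after seeing the data, *Xbp1* was at 0.53, *Hsp90b1* at 0.48, *Hspa5* at 0.14, *Calr* at 0.18 and *Dnajb9* at -0.80, past 1.5-fold lower. *Atf4* was at 0.02 in this window and *Herpud1* at -0.35. *Ddit3* there was at 52.6 CPM in CD (46.6 to 59.3) and 37.1 CPM in HFD (30.4 to 44.9), a log2 ratio of -0.50. Cells of 2000 to 4000 UMIs and those with 8000 or more did not share this gap. *Ddit3* was at 70.8 and 70.6 CPM in cells of 2000 to 4000 UMIs and at 25.8 and 26.7 CPM in those with 8000 or more. Under 2000 UMIs it was at 103 and 78.2 CPM, lower in HFD too but with overlapping intervals. In the window of 4000 to 8000 UMIs, 52.9% of CD and 12.1% of HFD cells were Lyve1+. Cells with at least 10 *Lyz1* UMIs made up 24.8% and 59.2% there. The part of this in the *Ddit3* ratio was not tested. Cells of 2000 to 4000 UMIs, also chosen after seeing the data, had *Xbp1* at 0.68, *Hsp90b1* at 0.43 and *Dnajb9* at -0.54. *Hspa5* was at 0.08 and *Calr* at 0.07 in them, with CD and HFD levels whose intervals overlapped.

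Marker lists of other cell types moved in both directions between the libraries. The 6 stromal and mesothelial genes summed to 71.3 CPM in CD and 4.58 CPM in HFD, most of it *Dcn* with 759 and 28 UMIs, and *Pdgfra*, *Msln* and *Upk3b* were at 0 in HFD. The 4 neutrophil genes summed to 15.1 and 7.79 CPM with *Ly6g* at 0 in both libraries, the 4 endothelial genes to 12.5 and 9.65 CPM, the 3 adipocyte genes to 12.6 and 8.29 CPM, and the 6 T and NK genes to 2.93 and 0.989 CPM with *Cd3e* at 0 in both. *Mzb1* and *Ms4a1* of the plasma and B cell genes were at 0 in both libraries, and the list's 52.3 and 70.2 CPM came mainly from *Sdc1* and *Tnfrsf17*. The 3 peritoneal macrophage genes summed to 11.3 and 29.2 CPM. The 6 dendritic cell genes summed to 39.2 and 60.5 CPM, with each of the 6 detected in both libraries. They did not move together. *Ccl17* was at 18.9 and 43.5 CPM, *Flt3* at 1.38 and 2.10 CPM and *Clec9a* at 0.407 and 0.495 CPM. Lower in HFD were *Siglech* (12.1 and 9.27 CPM), *Ccr7* (6.02 and 4.95 CPM) and *Xcr1* (0.326 and 0.124 CPM). The part of the dendritic and of the peritoneal genes in the ratios of the members was not tested. Without every cell that held a UMI of endothelial, lymphoid, neutrophil, stromal or adipocyte markers, dendritic and peritoneal genes not being used for this filter (32.1% of CD and 27.7% of HFD cells), the log2 ratio was 0.58 for *Xbp1*, 0.51 for *Hsp90b1*, 0.24 for *Hspa5*, 0.19 for *Calr* and -0.31 for *Dnajb9*. The filter also changed the make-up. It left 293 of 555 CD and 357 of 672 HFD cells with at least 10 *Lyz1* UMIs, but 828 of 1172 and 329 of 415 Lyve1+ cells.

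The other genes of the pathways were taken from lists by role, and the background shares of 6.28% higher and 11.9% lower apply to them too. Of 15 further ER chaperones and folding enzymes, 5 were past 1.5-fold higher in HFD, 0 lower, and 14 had a ratio above 0, with a median log2 ratio of 0.39. The highest was *Ero1lb*, an oxidase that drives disulfide formation, at 7.41 CPM in CD and 12.6 CPM in HFD (log2 ratio 0.77, 0.35 to 1.19). The 4 others past the limit were *Creld2* (0.73), *Sdf2l1* (0.71), *Hyou1* (0.65) and *Pdia6* (0.64), named after their values were seen. *Dnajc10*, a disulfide reductase of the ER, had the lowest ratio at -0.56 (-0.86 to -0.26), from 24.4 to 16.6 CPM, and stood apart from the rest of its list as *Dnajb9* did among the members.

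Of 13 other genes of the integrated stress response with at least 20 UMIs, 4 were past 1.5-fold higher and 0 lower, with a median of 0.26. *Cebpb*, a transcription factor that pairs with ATF4 and CHOP, had the highest ratio among those with at least 100 UMIs, from 666 CPM in CD to 1434 CPM in HFD (log2 ratio 1.11, 1.06 to 1.15). *Vegfa* (20 UMIs in CD, 78 in HFD), *Ddit4* (34 and 46) and *Atf5* (114 and 138) were the other 3 past the limit, named after their values were seen. *Atf3*, an early stress transcription factor that tissue digestion can also raise, had the lowest ratio at -0.25 (-0.31 to -0.20), from 714 to 598 CPM. *Ppp1r15a*, the phosphatase subunit that reverses eIF2α phosphorylation, was at 236 and 199 CPM, on the same side as *Atf3*. *Chac1*, a further ATF4 target, had 0 UMIs in both libraries.

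Of 17 genes of amino acid supply and one-carbon metabolism, 2 were past 1.5-fold higher and 0 lower, with a median of 0.08. *Mthfd2*, a mitochondrial folate enzyme, was the highest with at least 100 UMIs, from 25.9 to 47.7 CPM (log2 ratio 0.88, 0.66 to 1.10). *Slc38a2*, an amino acid transporter, was the lowest, from 156 to 137 CPM (-0.18, -0.29 to -0.08). *Phgdh*, the other gene past the limit, had 19 UMIs in CD and 39 in HFD. The list thus held a few genes on the side of *Asns* and many near 0.

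Of 10 genes of sensors and kinases, 0 passed 1.5-fold in either direction and 8 had a ratio above 0, with a median of 0.27. *Atf6b*, a relative of ATF6, was the highest at 0.48 (0.24 to 0.71), and *Atf6* itself the lowest at -0.12 (-0.35 to 0.11). Of 15 genes of ER-associated degradation and translocation, 1 was past 1.5-fold higher and 0 lower, with a median of 0.12. That gene was *Syvn1*, the ubiquitin ligase HRD1, from 14.9 to 22.5 CPM (0.60, 0.29 to 0.90), and the lowest was *Os9*, a lectin of the same complex, at -0.23 (-0.42 to -0.05). Heat shock chaperones outside the ER, mainly driven by HSF1, are set beside them, with the mitochondrial *Hspd1* and *Hspe1* in the list. Of these 10, 2 were past 1.5-fold higher, *Hspa1a* (0.71) and *Hspa1b* (1.48), with a median of 0.31. A ratio above 0 was found for 9 of 10, and *Dnajb1* was lower (-0.18, -0.30 to -0.06). *Hspa1a* and *Hspa1b* are near-identical copies, so counting may split their reads. A summed level of 11 immediate early genes that tissue digestion is known to raise was 21524 CPM in CD and 21970 CPM in HFD.

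**Figure D2:**
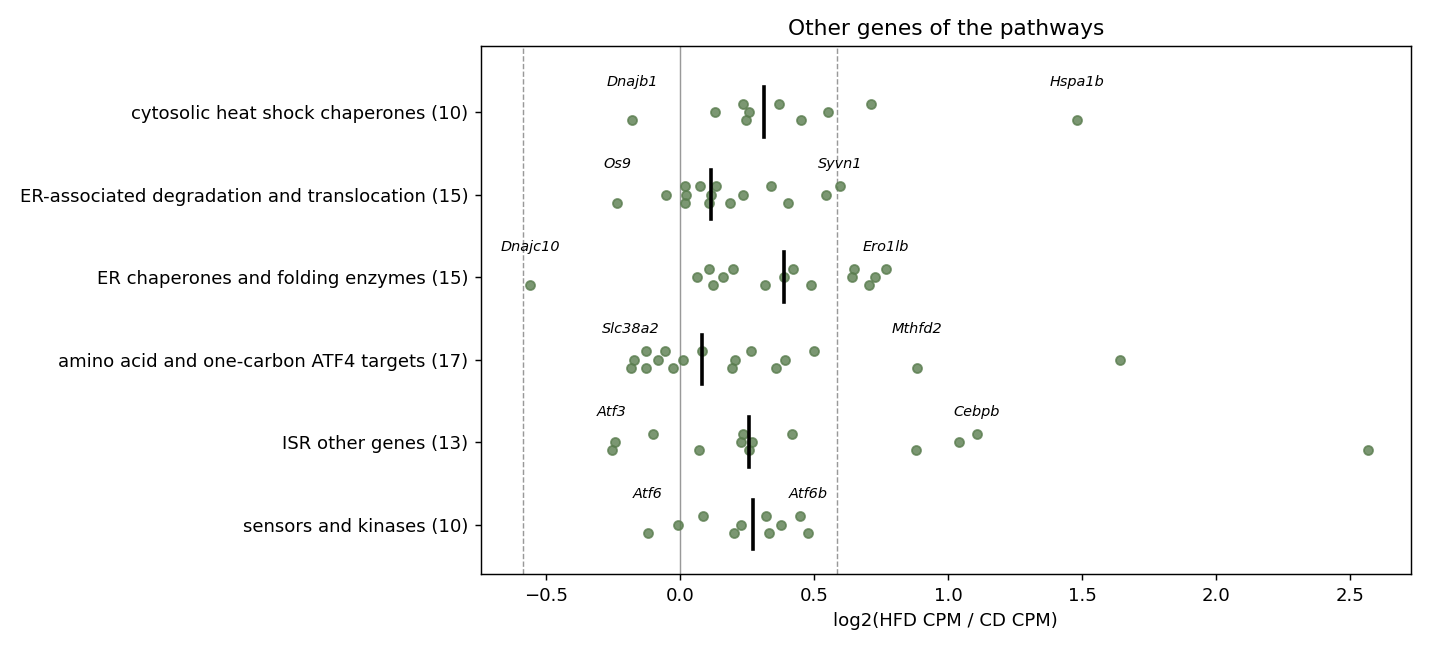
Each point is a gene with at least 20 UMIs, placed by its log2 ratio of HFD over CD, in 6 lists of pathway genes with the number of genes in brackets. Black bars are medians, from 0.08 for amino acid genes to 0.39 for ER chaperones, dashed lines mark 1.5-fold, and the genes with the lowest and highest ratio among those with at least 100 UMIs are named above their points.

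The same comparison was made within cells that held a UMI of *Lyve1*, which marks resident ATMs, of *Ccr2*, which marks monocyte-derived cells, at least 10 UMIs of *Lyz1*, or a UMI of *Trem2*, a lipid receptor that lipid-associated macrophages express. The 5 lipid-associated markers, *Trem2* included, summed to 899 CPM in CD and 2067 CPM in HFD in Trem2+ cells, against 1434 and 937 CPM in the other cells with at least 10 *Lyz1* UMIs, so in CD the list does not mark the Trem2+ cells and they are called by their rule. These classes overlap and rest on few UMIs per cell, with 1172, 1326, 555 and 638 cells in CD and 415, 1131, 672 and 168 in HFD. A *Ccr2* UMI was also in 42.4% of CD and 37.1% of HFD Lyve1+ cells, so the Ccr2+ class too is called by its rule. *Xbp1* was higher in HFD in all 4, with log2 ratios of 0.63 (0.44 to 0.82) in Lyve1+, 0.55 (0.45 to 0.66) in Ccr2+, 0.54 (0.41 to 0.68) in Lyz1 and 0.40 (0.15 to 0.65) in Trem2+ cells. In the Lyve1+ cells *Xbp1* went from 145 to 225 CPM and was the only member past 1.5-fold there, beside 9.39% of all genes higher and 11.8% lower. Other values differed too, since Lyve1+ cells had medians of 4052.5 UMIs in CD and 2299 in HFD. In Lyve1+ cells without *Trem2* and with under 10 *Lyz1* UMIs, the 6 dendritic cell genes summed to 23.8 CPM in CD and 173 CPM in HFD. In HFD 2 of the 6 were without a UMI, in CD 0. Heat shock chaperones in these cells summed to 3917 and 5793 CPM, and *Xbp1* was at 134 and 224 CPM (0.74, 0.48 to 1.01). The part of these in the *Xbp1* ratio was not tested.

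*Hsp90b1* was higher in HFD by 0.40 in Lyve1+, 0.50 in Ccr2+, 0.46 in Lyz1 and 0.34 in Trem2+ cells, each interval above 0. *Hspa5* was higher by 0.27, 0.35, 0.46 and 0.36, and *Calr* by 0.24, 0.30, 0.39 and 0.37, in the same order of classes, again with every interval above 0. *Atf4* differed in Lyve1+ cells (0.36, 0.18 to 0.53) and in Lyz1 cells (0.22, 0.08 to 0.36), while in Ccr2+ (0.09) and Trem2+ cells (0.01) its intervals spanned 0. Whether these ratios differ between classes was not tested, since each class came from the same 2 libraries.

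*Asns* in cells with at least 10 *Lyz1* UMIs had 3 UMIs in CD and 24 in HFD, a log2 ratio of 3.05 (1.33 to 5.43). In Ccr2+ cells *Asns* had 7 and 28 UMIs (2.49, 1.26 to 3.93). In both classes it reached 20 UMIs only through the HFD library, so its direction was fixed. Of the other 8 members 0 passed 1.5-fold in either direction, beside 6.89% of all genes higher and 8.30% lower in the Lyz1 class and 5.45% and 11.1% in the Ccr2+ class. In Lyve1+ cells it had 5 UMIs in each library. The 32 HFD UMIs of *Asns* thus lay mostly in the Ccr2+ cells, which also held 76.4% of all HFD UMIs.

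In Trem2+ cells *Herpud1* was at 104 CPM in CD (93.6 to 115) and 60.5 CPM in HFD (45.7 to 78.6), a log2 ratio of -0.78 (-1.21 to -0.37). It was the only member past 1.5-fold lower there, beside 20.4% of all genes lower and 10.7% higher, and in the other 3 classes its intervals spanned 0. The Trem2+ class differed in its cells, of which 60.5% in CD and 19.0% in HFD were also Lyve1+, and 15.8% and 27.4% held at least 10 *Lyz1* UMIs, and the part of this in the *Herpud1* ratio was not tested. *Dnajb9* was lower in HFD in Trem2+ (-0.53, -0.91 to -0.17), Lyve1+ (-0.44, -0.72 to -0.16) and Ccr2+ cells (-0.34, -0.53 to -0.16), without passing 1.5-fold. With the classes made disjoint the direction turned in Ccr2+ cells, from 57.4 CPM in CD to 70.5 CPM in HFD (0.30, -0.14 to 0.74), and the ratio was 0.05 (-0.24 to 0.34) in Lyz1 and -0.36 (-0.71 to -0.03) in Lyve1+ cells. In Lyz1 cells *Dnajb9* was at 55.9 and 51.8 CPM, and a difference was not detectable at this depth. *Ddit3* had an interval that spanned 0 in each of the 4 classes.

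**Figure D3:**
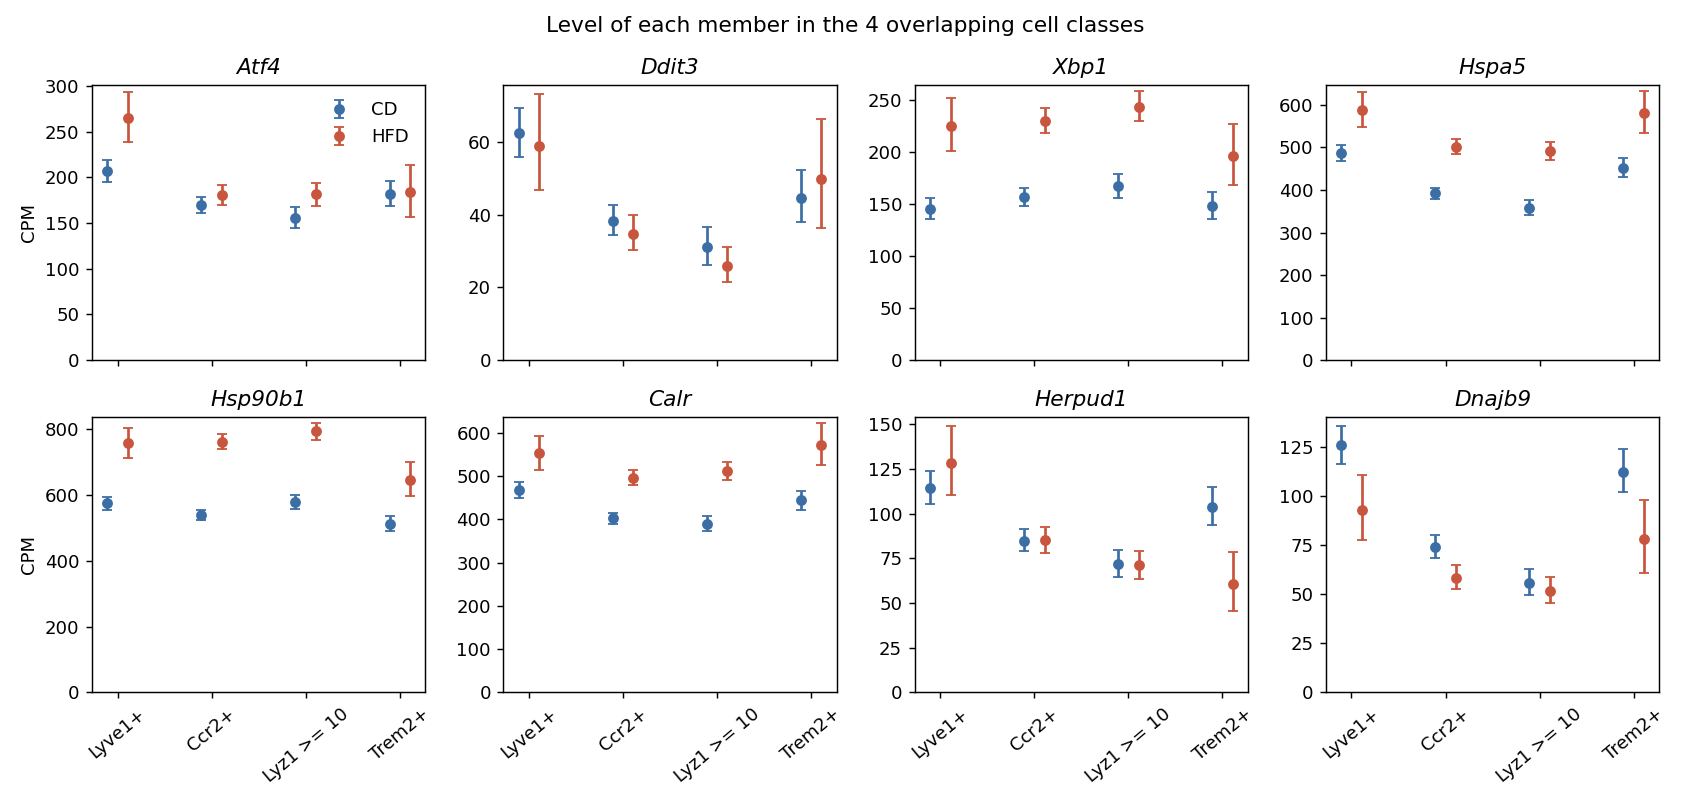
Each panel plots the level of a member in CPM in the 4 overlapping classes of the CD and HFD libraries, with exact 95% Poisson intervals and axes from 0. *Xbp1* and *Hsp90b1* were higher in HFD in each class, and *Ddit3*, *Herpud1* and *Dnajb9* were lower in the Lyz1 class than in the Lyve1+ class of both libraries.

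The next question was how the members differ between classes inside a library. *Ddit3*, *Herpud1* and *Dnajb9* were past 1.5-fold lower in cells with at least 10 *Lyz1* UMIs than in all other cells of both libraries, and the same 3 were so in Ccr2+ cells. That is 3 of the 8 members with at least 20 UMIs in each library, beside 16.9% of all genes for the Lyz1 class and 13.6% for the Ccr2+ class. In the Lyz1 class 95.7% of CD and 89.7% of HFD cells were also Ccr2+, so the classes share most of their cells and are not separate evidence. No member was past 1.5-fold higher in both libraries in either class, beside 4.38% and 5.19% of all genes. Taken by library, the Lyz1 class had 3 members lower in CD, beside 28.0% of all genes, and 3 in HFD, beside 26.7%. It had 0 of 8 members higher in either library, beside 8.42% and 6.89%, leaving out *Asns*, which passed 20 UMIs in HFD through the class where it was high (24 UMIs in the class, 8 outside it, an interval from -0.01 to 2.55). The Ccr2+ class had 3 lower in CD, beside 22.8%, and 4 in HFD, beside 25.2%, where *Atf4* joined the others at -0.74 (-0.89 to -0.60). It had 0 of 8 higher in either library, beside 9.56% and 9.38%, again leaving out *Asns* in HFD, whose interval spanned 0. These counts over 8 members are a description, and the depth of the classes moved with them, as given further on.

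*Ddit3* was at 31.1 CPM in the CD Lyz1 cells (26.3 to 36.5) and 58.5 CPM in the others, and at 25.9 CPM (21.5 to 31.0) and 67.3 CPM in HFD. The log2 ratios were -0.91 (-1.19 to -0.64) and -1.38 (-1.71 to -1.05). *Dnajb9* was at 55.9 and 118 CPM in CD and at 51.8 and 91.9 CPM in HFD, with log2 ratios of -1.08 (-1.28 to -0.88) and -0.83 (-1.08 to -0.58). *Herpud1* was at 71.8 and 124 CPM in CD and at 71.2 and 129 CPM in HFD, with log2 ratios of -0.79 (-0.97 to -0.61) and -0.86 (-1.07 to -0.66). All 3 were lower in the Lyz1 cells of both libraries, and their levels within the class had intervals that spanned 0 between the diets.

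*Atf4* was lower in the Lyz1 cells by less than 1.5-fold, with log2 ratios of -0.38 in CD and -0.44 in HFD. *Xbp1* was slightly higher there (0.17, 0.04 to 0.30 and 0.15, 0.02 to 0.28), and *Hsp90b1* was at 0.15 (0.08 to 0.22) and 0.07 (-0.00 to 0.14). *Hspa5* was lower, at -0.41 in CD and -0.17 in HFD, and *Calr* at -0.20 in CD and 0.02 in HFD, where its interval spanned 0. *Xbp1* and *Hsp90b1* thus lay on the other side of 0 from *Ddit3*, *Herpud1* and *Dnajb9*.

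In Lyve1+ cells 0 of 8 members passed 1.5-fold in both libraries in either direction, beside 8.39% of all genes higher and 4.23% lower. *Ddit3* was at 62.4 CPM in Lyve1+ and 36.6 CPM in other cells of CD (0.77, 0.53 to 1.01), and at 58.8 and 40.7 CPM in HFD (0.53, 0.16 to 0.89). *Dnajb9* was at 126 and 69.4 CPM in CD (0.86, 0.69 to 1.03) and at 92.9 and 64.2 CPM in HFD (0.53, 0.24 to 0.82). Both were past 1.5-fold in CD, 2 members beside 17.0% of all genes there, and short of it in HFD, 0 members beside 15.6%. No member was past 1.5-fold lower in either library, beside 9.28% and 8.88% of all genes. With each cell thinned to 800 UMIs, *Ddit3* turned to -0.08 in CD and -0.47 in HFD, while *Dnajb9* was at 0.91 in CD. These *Ddit3* values rest on few UMIs, since 4.50% of CD and 4.16% of HFD cells held one after thinning. The *Ddit3* ratio was above 0 in 12 of 13 alternatives in CD and in 11 of 13 in HFD.

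Set directly against each other, Lyve1+ cells with under 10 *Lyz1* UMIs (1049 CD and 361 HFD cells) and *Lyve1*-negative cells with at least 10 (432 and 618 cells) gave wider gaps, and 19.2% of all genes were higher in the former in both libraries and 7.95% lower. *Ddit3* was at 68.3 against 28.8 CPM in CD and 68.5 against 24.4 CPM in HFD, log2 ratios of 1.25 (0.92 to 1.58) and 1.49 (1.01 to 1.96). *Dnajb9* was at 139 against 51.4 CPM and 109 against 50.8 CPM (1.44, 1.20 to 1.68 and 1.10, 0.74 to 1.45). *Herpud1* was at 123 against 69.0 CPM and 149 against 69.4 CPM (0.83 and 1.10). *Atf4* was at 212 against 146 CPM and 300.3 against 180 CPM (0.53 and 0.74), past the limit in HFD only. *Hsp90b1* did not differ beyond counting error in either library (-0.00, -0.09 to 0.08 and -0.12, -0.24 to 0.00), and *Xbp1* was lower in CD (-0.25) with an interval across 0 in HFD.

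In Trem2+ cells 0 of 8 members passed 1.5-fold in both libraries, beside 1.64% of all genes higher and 2.61% lower. *Hsp90b1* was slightly lower in both (-0.12 in CD, -0.30 in HFD), and *Hspa5* and *Calr* slightly higher (0.10 and 0.09 in CD, 0.19 and 0.20 in HFD). *Herpud1* was level in CD (-0.00, -0.18 to 0.17) and lower in HFD (-0.74, -1.16 to -0.35), where it had 56 UMIs in 168 cells and was the 1 member past 1.5-fold, beside 17.2% of all genes lower and 10.5% higher in that library. In CD 0 members passed, beside 7.05% higher and 6.39% lower.

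Depth, mitochondrial share and immediate early genes moved with these class differences. Lyz1 cells had medians of 8205 UMIs in CD and 6609 in HFD, against 3707 and 1839 in other cells, and mt- shares of 2.57% and 2.12% against 4.79% and 4.84%. *Ddit3* was at 103 CPM (74.9 to 138) in CD cells under 2000 UMIs and at 25.8 CPM (21.3 to 30.9) in those with 8000 or more, and at 78.2 and 26.7 CPM in HFD. *Herpud1* was at 201 and 77.0 CPM in CD and at 188 and 67.0 CPM in HFD, and *Atf4* at 299.7 and 138 CPM and at 375 and 153 CPM, over the same bins. *Hsp90b1* was at 857 and 509 CPM in CD and at 1090.5 and 703 CPM in HFD. *Dnajb9* was at 136 and 58.0 CPM in CD and at 112 and 53.0 CPM in HFD. *Hspa5* was at 510 and 363 CPM in CD and at 564 and 518 CPM in HFD. *Xbp1* was at 199 and 147 CPM in CD and at 257 and 221 CPM in HFD. *Calr* was at 468 and 406 CPM in CD and at 474 and 558 CPM in HFD. The values of all these members were thus lower in the deepest than in the shallowest cells of both libraries, except *Calr* in HFD. For *Xbp1* in both libraries, *Hspa5* in HFD and *Calr* in CD the intervals of these bins overlapped.

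By mitochondrial share, *Ddit3* was at 30.5 CPM in CD cells under 2.5% and at 72.4 CPM in those of 5 to 10%, and at 30.8 and 74.4 CPM in HFD. *Hsp90b1* was at 460 and 723 CPM in CD and at 646 and 1112 CPM in HFD over these bins, while *Xbp1* was at 158 and 163 CPM in CD and at 218 (204 to 233) and 275 CPM (245 to 307) in HFD. Immediate early genes summed to 16230 CPM in CD and 17654 CPM in HFD in the disjoint Lyz1 class, against 26370 and 30754 CPM in the disjoint Lyve1+ class. The part of depth and mitochondrial share in the class differences was looked at only through thinning, mitochondrial limits and the depth windows that follow. The part of digestion was not tested.

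Shares of all genes past 1.5-fold were not computed within depth windows, so counts of members in them are a description only. Within cells of 4000 to 8000 UMIs, 1 member, *Dnajb9*, was past 1.5-fold lower in the Lyz1 class of both libraries (-0.999 in CD, -0.75 in HFD). *Ddit3* there was at -0.42 in CD and -1.20 in HFD, and *Herpud1* at -0.74 in CD and 0.13 in HFD. Within cells of 2000 to 4000 UMIs 0 members passed in both libraries, with *Dnajb9* at -1.06 and -0.35, *Ddit3* at -0.44 and -1.40 and *Herpud1* at -0.43 and -1.08, in as few as 40 CD and 104 HFD Lyz1 cells. *Dnajb9* and *Ddit3* were thus below 0 in the Lyz1 class in both windows of both libraries, and *Herpud1* in 3 of 4.

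**Figure D4:**
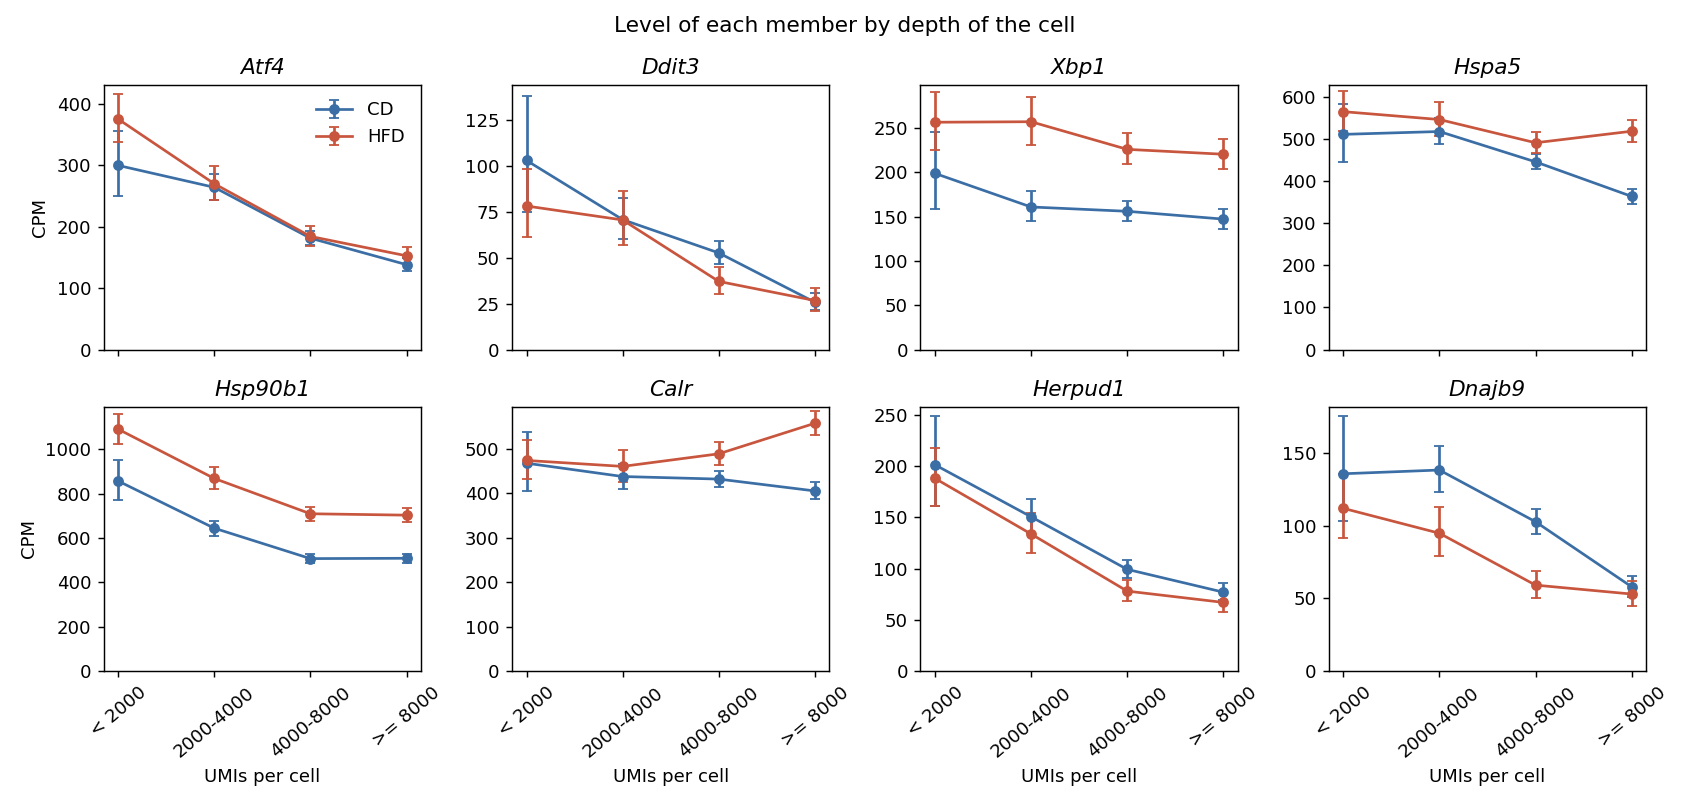
Each panel plots the level of a member in CPM in 4 bins of UMIs per cell, with exact 95% Poisson intervals and axes from 0, for the CD and HFD libraries. *Ddit3*, *Atf4* and *Herpud1* were lower in deeper cells of both libraries, *Xbp1* and *Hsp90b1* were higher in HFD in each bin, and *Calr* was at 468 to 406 CPM in CD and 474 to 558 CPM in HFD from the shallowest to the deepest bin.

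Cells in which CHOP messenger was caught were also compared with the rest. *Ddit3* UMIs were found in 497 of 2364 CD cells and 286 of 2021 HFD cells, which had medians of 4942 and 3942 UMIs against 4302 and 2633 in cells without. Between cells with and without a *Ddit3* UMI, 0 of the other members passed 1.5-fold in both libraries, beside 0.473% of all genes higher and 0.823% lower. With so few of all genes past the limit, the 0 is not particular to the members. *Atf4* was at 194 against 182 CPM in CD (0.10, -0.05 to 0.24) and at 208 against 209.9 CPM in HFD (-0.02, -0.20 to 0.17). *Hspa5* was higher in CD by 0.13 (0.04 to 0.22) and at 0.11 (-0.01 to 0.22) in HFD, and *Herpud1* was at 0.18 (-0.00 to 0.37) and -0.17 (-0.46 to 0.11). A cell without a *Ddit3* UMI may still express the gene, so these ratios compare detection and not expression.

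Over 10 points, 5 disjoint classes in each of 2 libraries, the summed level of *Atf4*, *Ddit3*, *Trib3* and *Asns* was most like that of *Clec2d*, *Hnrnph1* and *Aftph* among 4306 genes with at least 500 UMIs (Pearson r of log2(CPM + 1) 0.99, 0.98 and 0.98). The sum of *Xbp1*, *Hspa5*, *Hsp90b1*, *Calr*, *Herpud1* and *Dnajb9* was most like *Pde3b*, *Fbxl5* and *Rbm26* (0.94, 0.93 and 0.92). The points share libraries, depth and mitochondrial share within a class, and the 3 genes are the highest of 4306, so these values only describe the order.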

How the data were processed

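ATMs were profiled by droplet-based scRNA-seq, with 1 pool of 3 animals for each diet. Raw UMI counts for every gene in each barcode, as the authors deposited them, came from Cell Ranger 3.0.2 and build mm10 by the submitters' processing notes and from Ensembl 93 by the study's methods, and were not normalized. The files held 15003119 UMIs in 4459 CD barcodes and 9164686 in 3163 HFD barcodes, and no further per-sample columns were left unused. Cells with 200 to 3500 genes and at most 10% mt- UMIs were kept, and UMIs were summed per library or class and scaled to CPM.

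The 95% intervals were exact Poisson for levels, exact conditional binomial for ratios and Clopper-Pearson for shares, and cover counting error alone. With 1 library per diet no p-value was computed. Calls needed 1.5-fold and 20 UMIs. Shares of cells were computed after thinning cells to 800 UMIs (30 CD and 147 HFD cells were too shallow), and without thinning. The members and lists were chosen with earlier results of these data known. Named genes were all 10 members, the highest and lowest ratio of each pathway list among genes with at least 100 UMIs, and the 3 genes most like each summed branch. *Mars1* and *Vimp* were not matched to the feature table. Gene positions came from GENCODE M21 and promoter windows from RefSeq (GRCm38.p6), the build of mm10, and all 10 members matched. Protein sequences were not used here. Alternatives changed filters, scaling, depth, doublets (the highest Scrublet scores in scanpy 1.11.5, since its own threshold called 0 and 2 barcodes), class definitions and cells with markers of other types. The intervals and calls were tried on Poisson counts simulated from the pooled gene means. Such counts hold no spread between cells or mice, so this checked the computation only. Python 3.11.15, numpy 2.4.6, scipy 1.17.1, pandas 2.3.3 and matplotlib 3.10.9 were used.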

Additional observations from a re-analysis of the deposited data

Results flagged for a closer look

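*Xbp1* was above the CD level also in barcodes that the filter on mitochondrial UMIs removed. In 924 CD and 797 HFD barcodes with over 10 to 20% mt- UMIs, it was at 183 CPM in CD and 275 CPM in HFD, a log2 ratio of 0.59 (0.31 to 0.87). The alternatives run for *Xbp1* above include 1 with a mitochondrial limit of 20%, which adds these barcodes to the kept cells. The value here is thus not separate from that alternative. In the same barcodes *Hsp90b1* was at 970 and 954 CPM (-0.03, -0.16 to 0.11) and *Calr* at 481 and 406 CPM (-0.24, -0.45 to -0.04), so the higher HFD level of these chaperones in kept cells was not found there. Barcodes of this kind can be damaged cells, and whether the libraries lost them alike was not tested.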

How the results depend on the processing

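No paired analysis was possible because each diet had 1 library, and no replicate could be left out. Shares of all genes past 1.5-fold were not computed under the alternatives, so the counts of members under them are a description only. The count of members past 1.5-fold higher in HFD was 1 (*Asns*, whose call could go in 1 direction only, since it reached 20 UMIs through the HFD library). It was 2 (*Asns* and *Xbp1*) with at least 1000 genes, with the stricter limits on genes and with means over cells. It was 0 after thinning to 800 UMIs and in cells of 4000 to 8000 UMIs, where *Asns* had under 20 UMIs. In cells of 2000 to 4000 UMIs *Asns* had 0 and 6 UMIs, too few for a call, and *Xbp1* (0.68) passed the limit. In the window of 4000 to 8000 UMIs, which like that of 2000 to 4000 UMIs was added after seeing the data, 1 member (*Dnajb9*) was past 1.5-fold lower in HFD, against 0 otherwise. For Lyve1+ cells the count higher in both libraries was 0, and it was 1 with a mitochondrial limit of 5%, without cells with markers of other types, at 4000 to 8000 UMIs, with classes set after thinning and with classes from 2 UMIs, and 2 with disjoint classes. The count lower in Ccr2+ cells was 3, and it was 1 at 4000 to 8000 UMIs and 0 at 2000 to 4000 UMIs, with classes set after thinning and with disjoint classes. The count lower in Lyz1 cells was 3, and it was 1 at 4000 to 8000 UMIs and 0 at 2000 to 4000 UMIs, where 1 member (*Hsp90b1*) was higher. Among class ratios past 1.5-fold before these changes, the sign turned for *Ddit3* in CD Lyve1+ cells after thinning (-0.077). It also turned for *Herpud1* in HFD at 4000 to 8000 UMIs in Ccr2+ (0.83) and Lyz1 cells (0.13). With disjoint Ccr2+ classes it turned for *Herpud1* (0.068 in CD, 0.40 in HFD), *Ddit3* (0.32 in HFD) and *Dnajb9* (0.034 in HFD). Smaller ratios turned too, among them *Ddit3* in HFD Lyve1+ cells after thinning (-0.47). *Atf4* did so at 4000 to 8000 UMIs in HFD Lyz1 cells (0.23). At 2000 to 4000 UMIs *Atf4* turned in CD Ccr2+ (0.13) and Lyz1 cells (0.14). The cause was not tested. Disjoint Ccr2+ cells (302 of 1326 in CD and 369 of 1131 in HFD) leave out Trem2+, Lyz1 and Lyve1+ cells by construction. The Ccr2+ cells left out count among the other cells in that comparison. Over all alternatives that gave a value, the log2 ratio of HFD over CD ran from 0.47 to 0.68 for *Xbp1*, 0.43 to 0.56 for *Hsp90b1*, 0.08 to 0.33 for *Hspa5*, 0.07 to 0.32 for *Calr* and -0.80 to -0.28 for *Dnajb9*, each on 1 side of 0, and from 0.02 to 0.35 for *Atf4*, -0.50 to 0.03 for *Ddit3* and -0.35 to 0.06 for *Herpud1*. Of the other values of single members, 748 moved by less than their counting interval and 200 by more. *Trib3* was too sparse for any ratio, and *Asns* for class ratios in CD.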
